A study of Mus musculus with 10 samples.

Results

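The Hox genes were read in RNA sequencing of sorted fetal intestinal cells from mouse embryos that lacked or carried p57Kip2. A gene counted as a member when its symbol was Hox followed by a cluster letter from a to d and a paralogue number, and members were ordered by cluster and number. The table of 20579 genes held 27 of the 39 Hox genes in the GENCODE M21 annotation. These were 10 of 11 Hoxa, 8 of 10 Hoxb, 5 of 9 Hoxc and 4 of 9 Hoxd genes. Hoxa11, Hoxb1, Hoxb8, Hoxc10 to Hoxc13, Hoxd1, Hoxd3 and Hoxd11 to Hoxd13 were not analysed here. The question put to the members was whether the position along the gut that their RNA reports differed between the genotypes.

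There were 5 libraries from p57KO embryos, which lack the cyclin-dependent kinase inhibitor p57Kip2 encoded by Cdkn1c, and 5 from p57WT embryos. All were taken at E18.5, late in gestation, on a mixed background labelled C57BL6/J / 129S4. All carried green fluorescent protein driven by the Hopx promoter, and the sorted cells were labelled Hopx+ intestinal stem cells. Hopx is a homeodomain protein used as a marker of slow-cycling crypt cells. The sources used here do not give the length or segment of intestine taken, the part of Cdkn1c removed or animal identifiers. If libraries of one genotype share an embryo, the p-values measure a spread that is partly technical.

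Hox genes encode homeodomain transcription factors and lie in 4 clusters in the mouse. Within a cluster their order on the chromosome matches their order of use along the body axis: low paralogue numbers begin to be used nearer the head and high numbers nearer the tail. In the gut they are transcribed strongly in the mesoderm-derived layers (smooth muscle, fibroblasts) and, in part with other boundaries, in the epithelium, so a mixture of high and low numbers is commonly read as a position along the intestine. HOX proteins bind DNA together with PBX and MEIS cofactors. The caudal-type factors CDX1 and CDX2, retinoic acid and Polycomb complexes act upstream of the clusters.

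Total counts ranged from 10684179 to 26809231 in p57KO and from 8037887 to 25527896 in p57WT libraries. Cdkn1c was at 0.837 ± 0.761 CPM (counts per library, scaled to equal effective sizes) in the p57KO libraries, against 230 ± 128 CPM in the p57WT libraries (SD, n = 5 each), which checks the genotype labels. Each library name also carries a number that the labels do not explain: 607 for p57KO 1, p57KO 2 and p57WT 1, 608 for p57KO 3 to 5, and 740 for p57WT 2 to 5. The number and the genotype are nearly the same split and cannot be told apart outside 607. The cell type label was checked against marker genes, and it did not hold for epithelium alone. The 11 smooth muscle markers summed to between 4757 and 32270 CPM in p57KO and between 49210 and 98330 CPM in p57WT, and all 11 fell in p57KO. The 17 epithelial markers summed to between 8806 and 17250 CPM in p57KO and between 3032 and 7391 CPM in p57WT, and 14 of them rose. By the same test, described below, 17.2% of all genes fell and 19.3% rose. The lowest smooth muscle sums were in p57KO 1 and p57KO 2, at 4757 and 7296 CPM. Ribosomal RNA repeats held from 9.47% to 17.0% of counts in p57KO 5 and p57WT 1, 3, 4 and 5 and under 1% in the rest.

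Most Hox genes of low and middle paralogue number had less RNA in p57KO than in p57WT, and those of high number in Hoxa and Hoxb did not. Of the 21 members that passed the expression filter, 12 fell and 0 rose in the edgeR quasi-likelihood test with adjusted p below 0.05 over all 16710 genes tested. The filter and test called 36.5% of all genes, 17.2% of them lower and 19.3% higher. At an unadjusted p below 0.05, 0 members were higher and 13 lower in edgeR. The share of all genes at that threshold is not given here, so these counts have no background. DESeq2, which was run without that filter, called 0 higher and 15 lower, where it called 17.5% of all genes lower. The members that fell were Hoxa2, Hoxa3, Hoxa4, Hoxa5, Hoxa7, Hoxb2, Hoxb3, Hoxb4, Hoxb5, Hoxc4, Hoxc8 and Hoxc9. When the class of each library by ribosomal RNA (above or below 5% of counts) was added to the fit, a choice made after seeing the data, 6 of these no longer passed and 6 did, where 10.5% of all genes fell. Those lost were Hoxa7 (log2 fold change -1.34), Hoxb3 (-0.96), Hoxb4 (-1.27), Hoxc4 (-1.93), Hoxc8 (-1.78) and Hoxc9 (-2.07), with edgeR adjusted p-values of 0.05, 0.412, 0.0659, 0.0859, 0.113 and 0.0863 in that order. By paralogue number, 7 of 8 tested members of groups 1 to 4 fell (median log2 fold change -2.01), 4 of 8 of groups 5 to 8 (median -1.80), and 1 of 5 of groups 9 to 13 (median 0.70), against a median of 0.08 over all genes. The CPM ranges of the genotypes did not overlap for 8 tested members, all of numbers 2 to 7 and lower in p57KO, where 12.7% of all tested genes were separated in that direction.

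These directions are relative to all genes as scaled by the trimmed mean of M values (TMM). When libraries were scaled to the smooth muscle and fibroblast markers instead, the median of all genes moved to 2.98, the median of Hox numbers 1 to 8 stood at 0.91 and that of numbers 9 to 13 at 4.03, so most of the lower values turned above 0. Scaled to the epithelial markers the 3 medians were -1.23, -3.23 and -0.69. Some settings that do more than rescale moved the median of numbers 9 to 13 below that of all genes. It was -1.17 against -0.05 with a smooth muscle covariate, and -0.15 against -0.02 without p57KO 1 and p57KO 2. The median of numbers 1 to 8 was -1.78 and -1.93 in these fits. Other settings kept the median of numbers 9 to 13 above that of all genes. It was 1.82 against 0.15 with a term for the number in the library names. With the ribosomal RNA class it was 1.08 against 0.05, and with a replicate block 0.79 against 0.03. The smooth muscle level did not overlap between genotypes, so the covariate fit separates level and genotype poorly. In these bulk libraries fewer cells of a type and less RNA per cell cannot be told apart.

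**Figure D1:**
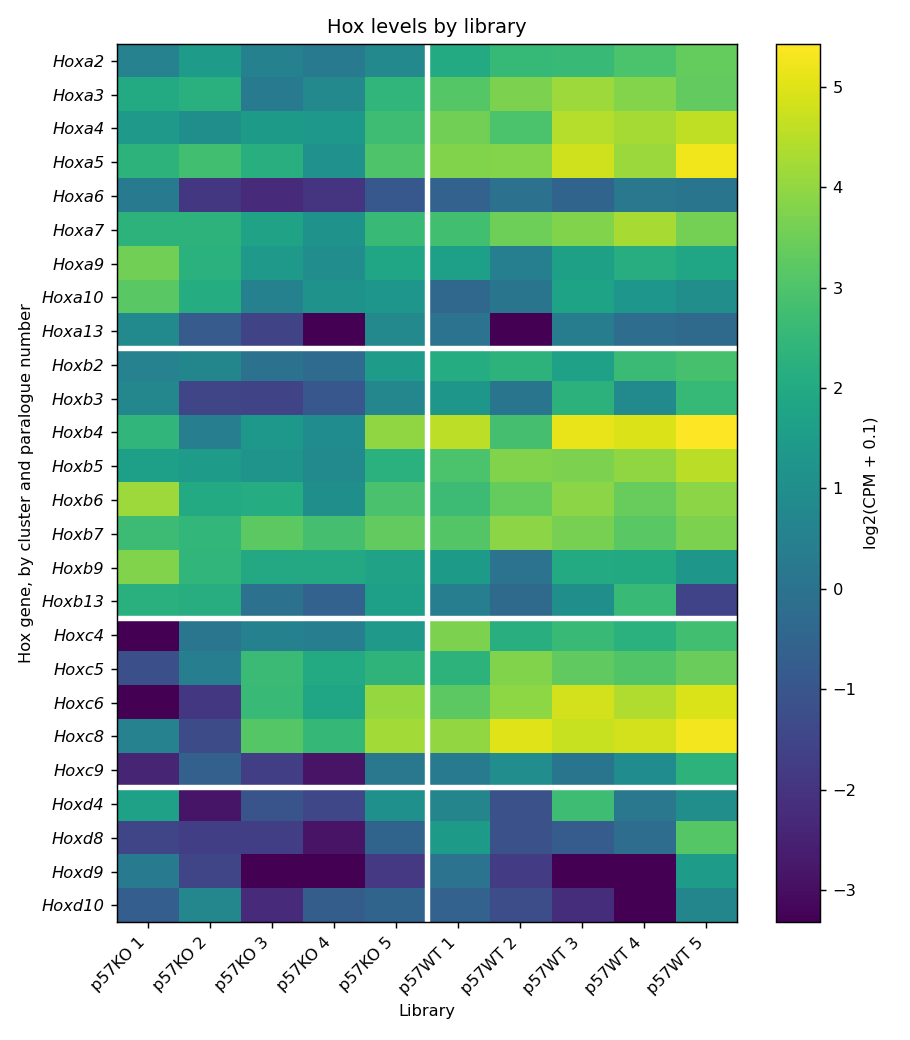
Level of 26 of the 27 Hox members (rows, by cluster and paralogue number) in each library (columns), as log2(CPM + 0.1). The 5 p57WT columns are brighter than the 5 p57KO columns over most of numbers 2 to 8, and p57KO 1 and p57KO 2 are dark over Hoxc4 to Hoxc8. CPM are scaled by TMM over all genes.

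**Figure D2:**
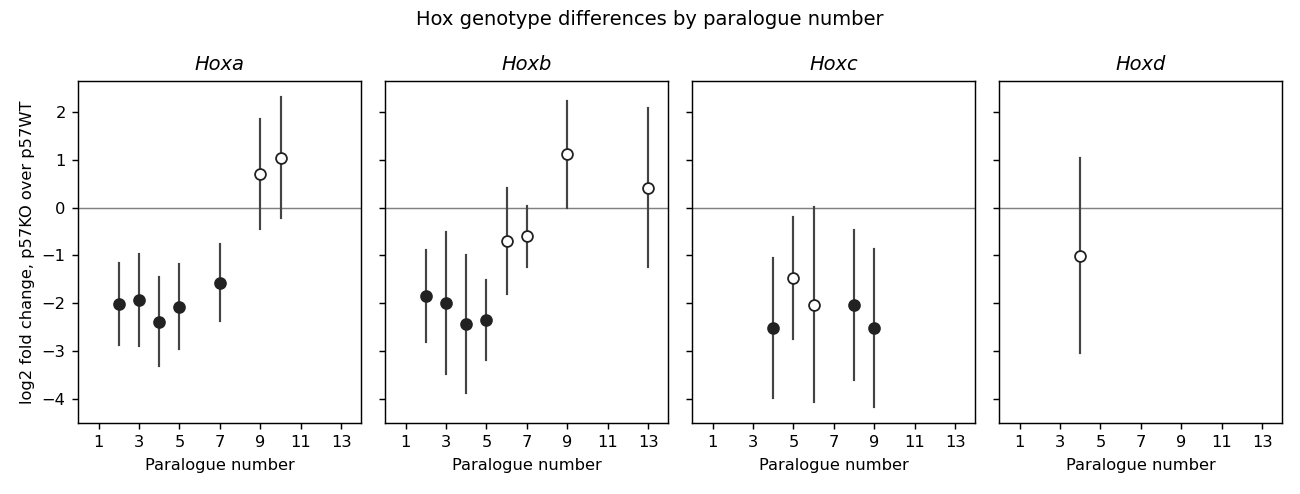
Log2 fold change of p57KO over p57WT for the 21 tested members against paralogue number, in 1 panel per cluster, with 95% limits as bars. Filled points passed at adjusted p below 0.05. Hoxa and Hoxb points lie below 0 up to number 7 and above 0 from number 9, while Hoxc9 lies below 0 with the other Hoxc members. With libraries scaled to smooth muscle and fibroblast markers most points shift above 0.

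The Hoxa cluster spans 105.3 kb of chromosome 6, and its members Hoxa2 to Hoxa7 fell together. Hoxa5, whose protein is known for lung and axial skeletal patterning, had the highest mean level per kilobase of exon of all members. It was at 4.97, 6.75, 4.50, 2.03 and 7.98 CPM in p57KO 1 to 5 and at 13.5, 13.9, 27.6, 17.2 and 37.6 CPM in p57WT 1 to 5. Every p57KO library was below every p57WT library (log2 fold change -2.07, SE 0.41, edgeR adjusted p = 0.00265). Hoxa4, a neighbour with a role in cervical vertebrae, was at 2.57, 1.94, 2.62, 2.45 and 6.51 CPM in p57KO 1 to 5 and at 11.7, 7.60, 21.7, 18.9 and 23.9 CPM in p57WT 1 to 5. Its groups did not overlap either, with p57KO 5 the highest of its group (log2 fold change -2.39, SE 0.43, edgeR adjusted p = 0.00156). Hoxa7 was at 4.89, 4.98, 3.21, 2.14 and 5.99 CPM in p57KO 1 to 5 and at 6.69, 11.3, 13.4, 19.4 and 12.1 CPM in p57WT 1 to 5. The gap between p57KO 5 and p57WT 1 was narrow, and Hoxa7 fell (log2 fold change -1.57, SE 0.38, edgeR adjusted p = 0.00684). Hoxa2, needed for the second pharyngeal arch, averaged 1.64 ± 0.621 CPM in p57KO, against 6.66 ± 2.33 CPM in p57WT (SD, n = 5 each), and fell by 2.01 on the log2 scale. Hoxa3, needed for thymus and parathyroid, averaged 3.31 ± 1.84 CPM in p57KO, against 12.6 ± 3.59 CPM in p57WT, and fell by 1.93.

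Hoxa9 and Hoxa10, the next genes toward the tail end of the same cluster, did not share that difference. Hoxa9, a regulator of blood progenitors and of the limb and axis, was at 11.7, 4.73, 2.51, 1.84 and 3.47 CPM in p57KO 1 to 5 and at 2.95, 1.26, 3.02, 4.30 and 3.43 CPM in p57WT 1 to 5. The ranges overlapped, and Hoxa9 missed the threshold (log2 fold change 0.70, 95% limits -0.44 to 1.85, edgeR adjusted p = 0.312). Without p57KO 1 and p57KO 2, the highest libraries, it stood at -0.15. Hoxa10, which patterns the uterus and lumbar vertebrae, was at 8.92, 4.18, 1.33, 2.10 and 2.34 CPM in p57KO 1 to 5 and at 0.681, 0.945, 3.26, 2.35 and 1.89 CPM in p57WT 1 to 5. Here too p57KO 1 and p57KO 2 were the highest and the rest overlapped (log2 fold change 1.05, 95% limits -0.22 to 2.33, edgeR adjusted p = 0.176; without p57KO 1 it was 0.47). The ratio of Hoxa9 to Hoxa7 counts, picked after the values were seen, does not depend on scaling. It was 2.40, 0.949, 0.783, 0.857 and 0.580 in p57KO 1 to 5, against 0.441, 0.112, 0.225, 0.221 and 0.284 in p57WT 1 to 5, with no overlap. The like ratios of Hoxb9 to Hoxb7 (0.327 to 2.18 in p57KO, against 0.0605 to 0.435 in p57WT) and of Hoxc9 to Hoxc8 (0.00680 to 1.86 in p57KO, against 0.0379 to 0.128 in p57WT) overlapped.

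The 250 bases upstream of the annotated start are shown for 3 members that fell and for Hoxa10, which did not. Sequences are from RefSeq on GRCm38.p6, 5′ to 3′ on the gene's strand, and hold no annotated exon. Capitals mark 1 of 3 motifs searched on both strands: TTTATG, which CDX factors bind, TGATTNAT, a PBX and HOX pair site, and AGGTCA, a motif of retinoic acid receptors. The motifs do not overlap in these windows. The window of Hoxa2 lies at chr6:52164832-52165081 (minus strand), that of Hoxa5 at chr6:52204588-52204837 (minus), that of Hoxb4 at chr11:96318017-96318266 (plus) and that of Hoxa10 at chr6:52240855-52241104 (minus).
Hoxa2: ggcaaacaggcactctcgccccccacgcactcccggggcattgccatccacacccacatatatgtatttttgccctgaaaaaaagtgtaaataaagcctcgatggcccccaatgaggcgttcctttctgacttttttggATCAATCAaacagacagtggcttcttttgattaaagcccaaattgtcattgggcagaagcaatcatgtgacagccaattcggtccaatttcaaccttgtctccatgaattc
Hoxa5: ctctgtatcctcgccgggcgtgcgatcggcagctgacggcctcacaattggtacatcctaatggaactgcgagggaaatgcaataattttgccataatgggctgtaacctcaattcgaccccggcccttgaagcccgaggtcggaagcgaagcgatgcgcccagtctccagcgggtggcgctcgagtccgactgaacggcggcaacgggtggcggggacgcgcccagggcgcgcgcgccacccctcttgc
Hoxb4: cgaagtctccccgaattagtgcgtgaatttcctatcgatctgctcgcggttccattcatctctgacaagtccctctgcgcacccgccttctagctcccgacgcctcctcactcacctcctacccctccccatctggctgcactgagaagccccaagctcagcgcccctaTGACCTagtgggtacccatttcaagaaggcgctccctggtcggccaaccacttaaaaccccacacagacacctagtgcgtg
Hoxa10: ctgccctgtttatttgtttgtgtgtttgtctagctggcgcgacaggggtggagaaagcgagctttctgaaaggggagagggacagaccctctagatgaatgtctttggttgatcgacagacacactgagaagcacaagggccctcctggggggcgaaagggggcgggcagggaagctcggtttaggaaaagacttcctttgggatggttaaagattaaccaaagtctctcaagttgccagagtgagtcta
The window of Hoxa2 holds the PBX and HOX site, that of Hoxb4 the retinoic acid receptor motif, and those of Hoxa5 and Hoxa10 hold none of the 3. Of the 27 members 14 matched the promoter table, in 15 windows. TTTATG was in 2 of the 15 (Hoxa7, Hoxd4) and in 10.8% of all 32851 windows of the same length, TGATTNAT in 1 (Hoxa2) and in 2.8%, and AGGTCA in 5 (Hoxb4, Hoxc4, Hoxd4, Hoxd8, Hoxd10) and in 14%. Members that fell and members that did not pass both appear among those without a match.

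The Hoxb cluster, on chromosome 11, showed the same order along its length, with a broader step. Hoxb4, known for blood stem cell self-renewal and vertebral patterning, was at 5.32, 1.22, 2.41, 1.80 and 15.4 CPM in p57KO 1 to 5 and at 23.3, 7.17, 34.9, 31.3 and 42.9 CPM in p57WT 1 to 5. Among p57KO libraries only p57KO 5 exceeded p57WT 2, the lowest of p57WT, and Hoxb4 fell (log2 fold change -2.43, SE 0.67, edgeR adjusted p = 0.0137). With the ribosomal RNA term it stood at -1.27 and missed the threshold (edgeR adjusted p = 0.0659). Hoxb5, which acts in the enteric nervous system, had the smallest adjusted p of all members. It was at 3, 2.79, 2.20, 1.68 and 4.69 CPM in p57KO 1 to 5 and at 7.60, 13.5, 13, 15.8 and 23.0 CPM in p57WT 1 to 5, without overlap (log2 fold change -2.35, SE 0.38, edgeR adjusted p = 0.000984). Hoxb2, a hindbrain segment gene, fell as well (1.44 ± 0.775 CPM in p57KO, against 5.12 ± 1.60 CPM in p57WT, SD, n = 5 each). Hoxb3 passed only narrowly (log2 fold change -2, edgeR adjusted p = 0.0376). Leaving out p57KO 2, 3 or 4 or p57WT 1, 3 or 5 each ended the call, with edgeR adjusted p-values of 0.0739, 0.0824, 0.0900, 0.0534, 0.0882 and 0.103 in that order.

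Hoxb6 and Hoxb7 sat between the extremes. Hoxb7, a gene active in posterior mesoderm, was at 6.26, 5.49, 9.25, 7.15 and 9.80 CPM in p57KO 1 to 5 and at 8.40, 15.0, 12.3, 9 and 12.9 CPM in p57WT 1 to 5. The ranges overlapped in part (log2 fold change -0.60, 95% limits -1.24 to 0.03, edgeR adjusted p = 0.122). Hoxb6 was at 17.7, 3.93, 4.19, 1.95 and 7.38 CPM in p57KO 1 to 5 and at 6.24, 10.2, 14.7, 10.4 and 14.8 CPM in p57WT 1 to 5. p57KO 1 was the highest of all 10 libraries, and Hoxb6 missed the threshold (log2 fold change -0.69, edgeR adjusted p = 0.305). Without p57KO 1 it passed, at -1.37 (edgeR adjusted p = 0.0198).

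Hoxb9 and Hoxb13 lie at the tail end of the cluster. Hoxb9, which patterns thoracic ribs, was at 13.6, 5.28, 3.77, 3.75 and 3.21 CPM in p57KO 1 to 5 and at 2.61, 0.906, 3.98, 3.91 and 2.36 CPM in p57WT 1 to 5. Its log2 fold change of 1.12, the highest of the tested members, missed the threshold (95% limits -0.01 to 2.24, edgeR adjusted p = 0.107). It was 0.57 without p57KO 1. Hoxb13, a gene of the hindgut, prostate and tail bud, was at 4.54, 4.31, 0.873, 0.573 and 2.95 CPM in p57KO 1 to 5 and at 1.25, 0.709, 1.93, 5.87 and 0.236 CPM in p57WT 1 to 5. The highest library was p57WT 4, and the ranges overlapped throughout (log2 fold change 0.42, 95% limits -1.25 to 2.09, edgeR adjusted p = 0.695). Without p57KO 1 and p57KO 2 it stood at -0.44. The limits of Hoxa9, Hoxa10, Hoxb9 and Hoxb13 all included 0, and all 4 lower limits lay above -2.01, the median fold change of numbers 1 to 8.

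The Hoxc cluster, on chromosome 15, had a number 9 member that fell, and its RNA was low in p57KO 1 and p57KO 2. Hoxc8, a thoracic patterning gene, was at 1.37, 0.296, 8.55, 5.62 and 18.4 CPM in p57KO 1 to 5 and at 16.0, 31.8, 25.5, 28.3 and 38.9 CPM in p57WT 1 to 5. Only p57KO 5 reached the p57WT range, and Hoxc8 fell (log2 fold change -2.04, SE 0.73, edgeR adjusted p = 0.0422). The call was lost without p57KO 1, 3 or 4 or p57WT 2, 3, 4 or 5, with edgeR adjusted p-values of 0.0623, 0.0625, 0.0872, 0.0690, 0.0676, 0.0721 and 0.0859 in that order. Hoxc6, active in thoracic mesoderm, was at 0, 0.169, 5.93, 3.40 and 16.2 CPM in p57KO 1 to 5 and at 9.30, 15.2, 28.5, 21 and 30.1 CPM in p57WT 1 to 5. The 0 in p57KO 1 allows a level of up to 0.257 CPM, the worth of 3 counts in that library. The p57KO libraries varied widely, and Hoxc6 missed the threshold (log2 fold change -2.03, 95% limits -4.07 to 0.02, edgeR adjusted p = 0.108), but it passed without p57KO 5 (-3.07, edgeR adjusted p = 0.0228). Hoxc5 was at 0.343, 1.22, 6.18, 3.98 and 5.12 CPM in p57KO 1 to 5 and at 4.99, 13.4, 9.65, 8.22 and 10.6 CPM in p57WT 1 to 5. It too missed the threshold (log2 fold change -1.47, edgeR adjusted p = 0.0661) and passed without p57KO 3 (-1.80, edgeR adjusted p = 0.0466).

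Among the 21 tested members, the first and last Hoxc members measured had the lowest log2 fold changes, although without the filter Hoxd8, at -3.30, was lower than Hoxc4 at -2.46 and Hoxc9 at -2.48. Hoxc4 was at 0, 0.971, 1.33, 1.22 and 2.52 CPM in p57KO 1 to 5 and at 13, 4.37, 5.91, 4.69 and 6.74 CPM in p57WT 1 to 5, without overlap (log2 fold change -2.52, SE 0.68, edgeR adjusted p = 0.0125). Hoxc9, which sets motor neuron identity in the thoracic cord, was low everywhere, at 0.0857, 0.549, 0.209, 0.0382 and 1.04 CPM in p57KO 1 to 5 and at 1.13, 1.85, 0.965, 1.83 and 4.96 CPM in p57WT 1 to 5. p57KO 5 exceeded p57WT 3, and the difference passed (log2 fold change -2.52, SE 0.77, edgeR adjusted p = 0.0217). The call was lost without p57KO 3 (edgeR adjusted p = 0.0551) or p57WT 5 (log2 fold change -1.97, edgeR adjusted p = 0.0737).

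Among p57KO libraries, p57KO 1 and p57KO 2 (number 607) were set against p57KO 3 to 5 (number 608). By edgeR, Hoxc6 was lower in 607 by a log2 difference of -6.20 (adjusted p = 0.00485), Hoxc8 by -3.80 (adjusted p = 0.0107) and Hoxc5 by -2.62 (adjusted p = 0.0235). These were the 3 of 21 members called in that contrast, where 3.67% of all genes were called lower. Hoxa9, Hoxa10 and Hoxb9 had differences of 1.66, 1.77 and 1.39 in the other direction and missed the threshold (edgeR adjusted p = 0.119, 0.104 and 0.199). The share of the Hoxc cluster in Hox level per kilobase was 1.53%, 4.65%, 29.2%, 25.8% and 30.1% in p57KO 1 to 5, and it ran from 24.3% to 33.1% in p57WT. p57KO 1 and p57KO 2 also had the lowest smooth muscle and fibroblast sums and the highest epithelial and leukocyte sums. The part of cell mixture in the Hoxc difference was not tested. Within number 607 (p57KO 1 and 2 against p57WT 1, the lone p57WT library being taken to vary like the others) 4 members fell, where 4.94% of all genes did. They were Hoxc4 at -4.58, Hoxc5 at -2.59, Hoxc6 at -6.34 and Hoxc8 at -4.37. These calls rest on the same p57KO 1 and p57KO 2 in which Hoxc RNA was low, set against 1 library, and are no separate evidence. The Hoxa and Hoxb members that fell over all libraries kept values below 0 there, between -2.87 and -0.44, and did not pass.

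The Hoxd genes were scarce in both genotypes. Hoxd4 was at 3.09, 0.0422, 0.384, 0.268 and 1.99 CPM in p57KO 1 to 5 and at 1.48, 0.354, 6.51, 1.04 and 1.89 CPM in p57WT 1 to 5 (log2 fold change -1.01, edgeR adjusted p = 0.421). The ranges overlapped, and the fold change ran from -1.83 to -0.07 when single libraries were left out. Hoxd4 shares 52.3% of its exon length on the same strand with Hoxd3 and another annotated transcript, so its counts are uncertain. Hoxd8, which did not pass the filter, was at 0.257, 0.211, 0.209, 0.0382 and 0.607 CPM in p57KO 1 to 5 and at 2.61, 0.354, 0.482, 0.782 and 8.63 CPM in p57WT 1 to 5. Hoxd10, a lumbosacral and limb gene that also missed the filter, was at 0.514, 1.56, 0.105, 0.497 and 0.607 CPM in p57KO 1 to 5 and at 0.567, 0.315, 0.121, 0 and 1.54 CPM in p57WT 1 to 5. The 0 in p57WT 4 allows up to 0.391 CPM. Of the other members below the filter, Hoxa6, Hoxa13 and Hoxd9 were at no more than 1.71 CPM in p57KO and 2.72 CPM in p57WT.

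All 27 members could be fitted when the filter was dropped, and the pattern by number was then 12 of 19 lower for numbers 1 to 8 and 1 of 8 for numbers 9 to 13, where 14.3% of all genes were called lower. Hoxd8 (log2 fold change -3.30, edgeR adjusted p = 0.0188) was among the members that fell in that fit. Hoxa13, a hindgut and genital tubercle gene, stood at 0.13 and Hoxd10 at 0.42, and neither passed. The authors' deposited table called 15 of the 27 members, all lower. Of all its 20579 genes it called 3506 lower, and 37.5% in either direction.

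The make-up of Hox RNA by paralogue number was read within each library, as the share of summed CPM per kilobase of exon, which does not depend on how libraries are scaled. Numbers 9 to 13 held 33.2%, 29.8%, 10.7%, 14.9% and 10.04% in p57KO 1 to 5, against 5.95%, 3.02%, 4.48%, 6.86% and 4.94% in p57WT 1 to 5. The groups did not overlap, and p57KO 1 and p57KO 2 stood well above the other p57KO libraries. The means were 19.7% ± 11 in p57KO, against 5.05% ± 1.46 in p57WT (SD, n = 5 each), a difference of 14.7 percentage points, which was 6.82 points without p57KO 1 and p57KO 2. As the share is a score over the members, no p-value was attached to it. In raw reads, numbers 9 to 13 held 493 of 1189 Hox reads in p57KO 1 (95% exact binomial interval 38.6% to 44.3%) and 178 of 1502 in p57KO 5 (10.3% to 13.6%), against 146 of 1822 in p57WT 4 (6.81% to 9.36%), which had the highest p57WT share. Within Hoxa and Hoxb alone the share was 12.6% to 33.2% in p57KO and 2.44% to 8.12% in p57WT.

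Numbers 1 to 4 held 20.4% ± 4.40 of the Hox level per kilobase in p57KO and 34.7% ± 7.05 in p57WT, with ranges that overlapped (16.6% to 27.7% and 23.4% to 42.6%). Numbers 5 to 8 held 59.9% ± 9.85 in p57KO and 60.2% ± 8.24 in p57WT (SD, n = 5 each). The mean paralogue number weighted by level was 6.97, 6.74, 6.28, 6.33 and 6.08 in p57KO 1 to 5, against 5.38, 5.72, 5.41, 5.58 and 5.45 in p57WT 1 to 5, again without overlap. The amount of RNA of numbers 9 to 13 overlapped between genotypes, at 8.79 to 42.3 CPM in p57KO and 6.18 to 19.0 CPM in p57WT. The amount of all Hox RNA was 80.8 ± 34.4 CPM in p57KO, against 230 ± 64.7 CPM in p57WT, without overlap. As scaled by TMM, the higher share in p57KO 3 to 5 went with lower CPM of low and middle numbers. In p57KO 1 and p57KO 2 the CPM of numbers 9 to 13 also stood high. That reading depends on the scaling. Scaled to smooth muscle and fibroblast markers, the median log2 fold change was 0.91 for numbers 1 to 8 and 4.03 for numbers 9 to 13. The median of all genes was then 2.98. The order of mean levels per kilobase differed too. In p57KO the highest member was Hoxb7, at 4.92 CPM, followed by Hoxb6 at 3.58. Hoxb6 was at 9.04 in p57KO 1 and at 0.993 to 3.76 in p57KO 2 to 5, so its place leans on p57KO 1. In p57WT the highest was Hoxa5, at 11.7 CPM, followed by Hoxb4 at 10.9.

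**Figure D3:**
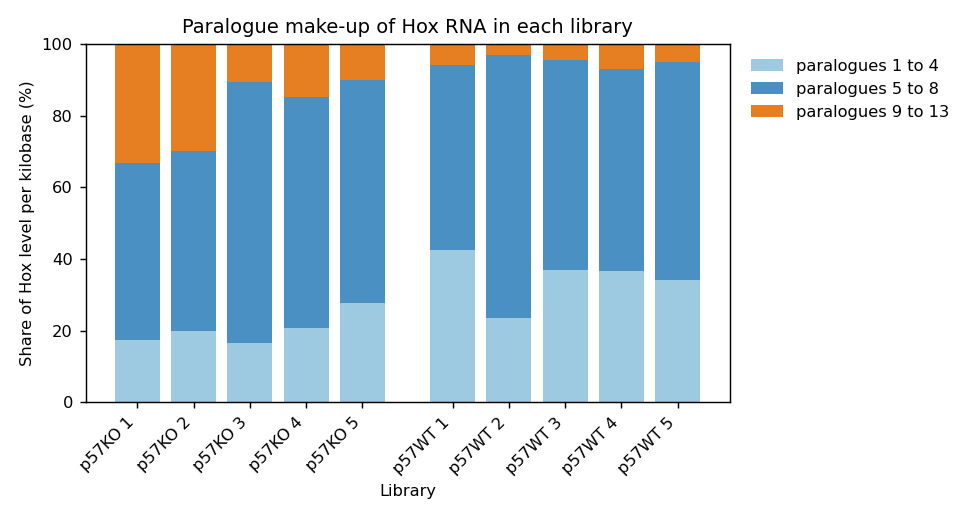
Share of the Hox level per kilobase of exon held by paralogues 1 to 4, 5 to 8 and 9 to 13 in each library, adding to 100%. The orange part, numbers 9 to 13, is 10.04% to 33.2% in the p57KO bars and 3.02% to 6.86% in the p57WT bars.

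The smooth muscle, fibroblast, epithelial, leukocyte and erythroid marker sums split by genotype without overlap, as did the Hoxa and Hoxb sums of numbers 1 to 8. The Hoxa and Hoxb sums of higher number overlapped. Smooth muscle markers fell in 11 of 11 (median log2 fold change -2.38) and fibroblast markers in 10 of 10 tested (median -2.63), with fibroblast sums of 299 to 1578 CPM in p57KO and 3233 to 10060 CPM in p57WT. None of the smooth muscle markers was at 0 in any library, and Thy1 was the only fibroblast marker at 0, in p57KO 4. Of 9 tested markers of enteric neurons and glia 5 fell, with sums of 22.9 to 42.2 CPM in p57KO and 28.4 to 106 CPM in p57WT. Leukocyte markers rose in 10 of 10 and erythroid markers in 7 of 8, while the 3 tested endothelial markers, between 0.51 and 0.81, did not pass. Over all genes 17.2% fell and 19.3% rose in the same fit. Leukocyte sums were 222 to 9143 CPM in p57KO and 30.4 to 177 CPM in p57WT. They were highest in p57KO 2 and p57KO 1, at 9143 and 1217 CPM. Erythroid sums were 108 to 1308 CPM in p57KO and 3.50 to 92.3 CPM in p57WT. Hoxa and Hoxb members of numbers 1 to 8 summed to 23.5 to 70.0 CPM in p57KO and 98.0 to 202 CPM in p57WT, so their order by genotype was that of the mesenchymal sums. Within each genotype the order of libraries differed. Smooth muscle sums were highest in p57KO 3 and p57WT 2, whereas fibroblast sums and these Hox sums were highest in p57KO 5 and p57WT 5. Among p57KO libraries both marker sums were lowest in p57KO 1 and these Hox sums in p57KO 4. The part of the marker differences in the Hox differences was not tested cell type by cell type. With the mean smooth muscle level as a covariate, 1 member, Hoxa2, fell, where 3.72% of all genes did. That level did not overlap between genotypes, so the fit separates it poorly from genotype. The SE of Hoxa2 rose from 0.40 in the main fit to 0.72. The part of smooth muscle cannot be read from the calls lost. In that fit Hoxa3, Hoxa5 and Hoxb5 were at -2.48, -2.24 and -2.23 and missed the threshold (edgeR adjusted p = 0.0636, 0.0665 and 0.0549), while Hoxc6 and Hoxc8 turned to 2.30 and 0.96.

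**Figure D4:**
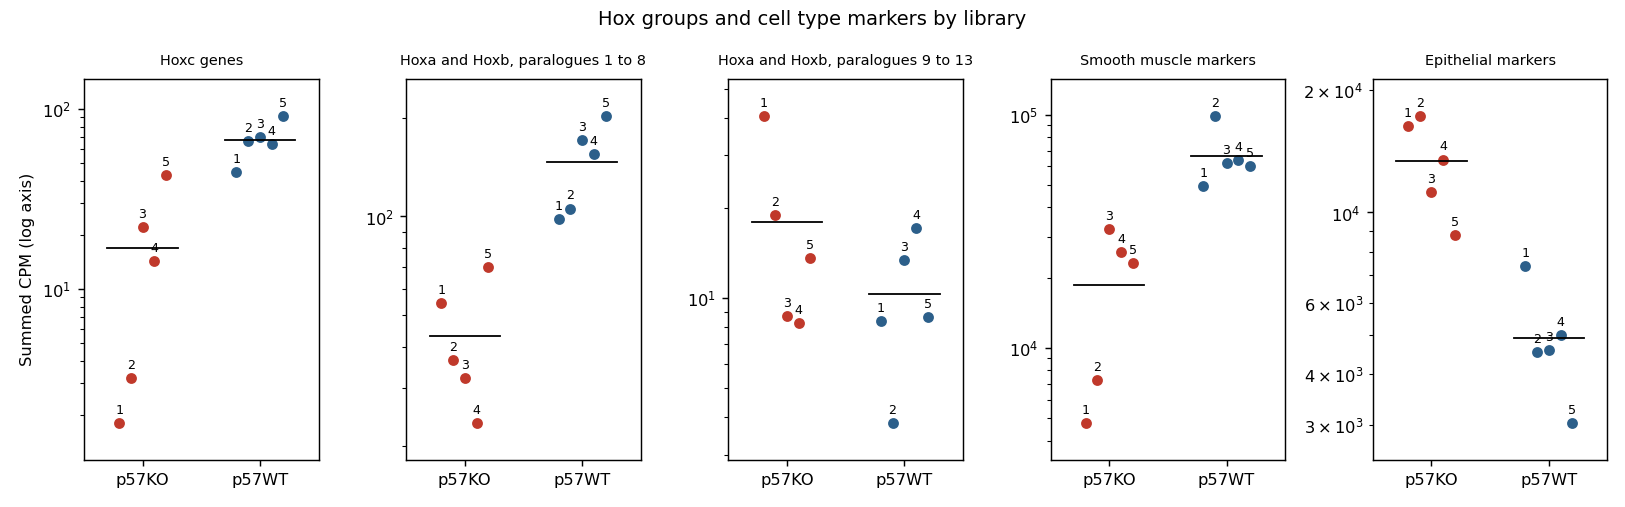
Summed CPM (log axes) of 3 Hox groups and of smooth muscle and epithelial markers in the 5 p57KO and 5 p57WT libraries. Digits give the library and bars the mean. Hoxc, Hoxa and Hoxb numbers 1 to 8 and smooth muscle are lower in every p57KO than in every p57WT library, Hoxa and Hoxb numbers 9 to 13 overlap, and epithelial markers are higher in p57KO. CPM are scaled by TMM over all genes.

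Some of the genes for DNA-binding partners of HOX proteins were lower in p57KO. Of 9 listed cofactor genes 4 fell, where 17.2% of all genes did, and the other 5, with log2 fold changes between -1.74 and -0.23, did not pass. The median of the list was -1.74. Meis1 averaged 35.2 ± 19.3 CPM in p57KO, against 151 ± 47.4 CPM in p57WT (log2 fold change -2.10, edgeR adjusted p = 0.00289). Meis2 averaged 31.95 ± 14.4 CPM in p57KO, against 119 ± 33.9 CPM in p57WT (-1.90, edgeR adjusted p = 0.00101). Pbx3 had a log2 fold change of -1.78 and passed. Pknox1, at -0.23, did not pass. These genes are also expressed in gut mesenchyme, and when libraries were scaled to smooth muscle and fibroblast markers the median of all genes was 2.98.

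RNAs transcribed from within the clusters were read with the Hox genes. Near Hoxa2 lies Hotairm1, a noncoding RNA on the opposite strand, which averaged 1.07 ± 0.573 CPM in p57KO, against 10.4 ± 3.45 CPM in p57WT (log2 fold change -3.31, edgeR adjusted p = 0.000498). The annotated small RNA feature Gm27477 next to it was at -3.60 (edgeR adjusted p = 0.000595). Between Hoxa2 and Hoxa4, Hoxaas2, Gm15050 and 5730596B20Rik fell (log2 fold changes -2.07, -1.42 and -2.02), as did Hoxb5os, opposite Hoxb5 (-1.95). Hoxaas3, which spans Hoxa3 to Hoxa7, was at -0.58 and missed the threshold. Gm53, upstream of Hoxb9 on the side of Hoxb13, stood at 0.64 and missed the threshold (edgeR adjusted p = 0.392). Gm11539, a pseudogene within the Hoxb cluster, was higher in every p57KO than in every p57WT library, by a narrow gap. It stood at 0.57 and missed the threshold (edgeR adjusted p = 0.06). Altogether 6 of 10 tested cluster neighbours fell, where 17.2% of all genes did. The sources used here give no strand setting of the counting, so reads of a Hox gene and of its antisense partner cannot be told apart. Among members that fell, the exon length shared with antisense transcripts is 52.9% of Hoxb3 and 27.3% of Hoxb2 with Hoxb3os. It is 25.4% of Hoxa3, 20.4% of Hoxa7, 16.0% of Hoxa4 and 3.6% of Hoxb5. Hoxa2 shares 15.0% of its exon length with another annotated transcript on the same strand. Hoxa5, Hoxa10, Hoxb4, Hoxb6, Hoxb7, Hoxb9, Hoxc4, Hoxc6, Hoxc8 and Hoxc9 share none.

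Upstream regulators and regional genes of the gut were read as well. Cdx1 and Cdx2, the caudal-type factors of intestinal epithelium, both rose: Cdx1 averaged 301 ± 68.9 CPM in p57KO, against 124 ± 44.2 CPM in p57WT, and Cdx2 averaged 60 ± 15.8 CPM in p57KO, against 26.1 ± 10.9 CPM in p57WT (log2 fold changes 1.29 and 1.21, edgeR adjusted p = 0.00400 and 0.00885). Both values lay below 1.37, the median of the 17 general epithelial markers, so they show no rise beyond that of epithelial RNA. Over all genes 19.3% rose. Aldh1a2, which makes retinoic acid and is a mesenchymal gene, fell by 2.56 on the log2 scale. Gdf11, a ligand that sets axial position, fell by 1.38, and the receptor gene Rara by 0.73. These were 3 of 6 tested genes of their list, where 17.2% of all genes fell. Of 21 Polycomb and trithorax genes, Rbbp7 and Eed rose, and Phc1, Kmt2d and Ring1 fell (median -0.16). Over all genes 19.3% rose and 17.2% fell, and neither count exceeds these shares.

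Some genes listed as marks of a gut region were higher in p57KO, from both the proximal and the distal list, where 19.3% of all genes rose. Of 10 proximal genes 6 rose (median 1.77): Hhex at 4.95, the fatty acid binding protein gene Fabp1 at 2.87, the iron exporter gene Slc40a1 at 2.14, Creb3l3 at 1.93, the lactase gene Lct at 2.36 and Gata4 at 0.85. Gata4, a factor of the duodenum and jejunum, averaged 46.1 ± 1.91 CPM in p57KO, against 25.7 ± 11.3 CPM in p57WT. The 4 that did not pass were Pdx1 at 1.48, Nkx6-3 at 1.60, Onecut2 at -0.12 and Cybrd1 at -0.23. Pdx1, a factor of the duodenum and pancreas, was at 41.3, 27.1, 1.92, 4.36 and 6.77 CPM in p57KO 1 to 5 and at 9.98, 2.68, 6.75, 6.39 and 3.43 CPM in p57WT 1 to 5. Nkx6-3, a factor of the distal stomach, was at 36.9, 19.9, 0.0698, 1.26 and 0.607 CPM in p57KO 1 to 5 and at 7.60, 0.236, 3.02, 6.13 and 2.6 CPM in p57WT 1 to 5. Both were highest in p57KO 1 and p57KO 2, the libraries with the highest Hox shares of numbers 9 to 13, and their groups overlapped. Lct ran the other way, at 7.12 and 19.3 CPM in p57KO 1 and 2 and 80.1 to 130 CPM in p57KO 3 to 5. Of 6 tested distal genes 4 rose (median 1.71): the ileal bile acid transporter gene Slc10a2 at 3.38, Car1 at 2.45, Fut2 at 1.77 and B4galnt2 at 1.65. The 17 general epithelial markers had a median of 1.37, and with libraries scaled to them the median of all genes was -1.23, so the regional genes are read beside that shift. Erythroid and leukocyte markers had medians of 3.49 and 4.59, and which cells carried the RNA of the regional genes was not tested. The proximal sum was 1427 to 2016 CPM in p57KO and 226 to 753 CPM in p57WT, and the distal sum was 94.4 to 156 CPM in p57KO and 28.2 to 61.2 CPM in p57WT. Whether the sampled length of intestine differed between genotypes was not tested by a measure of length.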

How the data were processed

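RNA was sequenced from GFP-sorted Hopx+ cells, 5 libraries per genotype. The deposited table holds whole-number read counts per gene and library, not normalized, per the file headers. It also holds a signal value per library, the count divided by a size factor by the authors, and the authors' comparison: log2 fold changes with standard errors, a Wald score, and p-values with adjusted p-values, per the file headers. STAR 2.6.1d, HTSeq 1.0, DESeq2, Cufflinks, Trim Galore and FastQC are listed with build GRCm38, per the submitters' processing notes, without the role of each, the annotation release or the strand setting. The smallest mean size-factor-scaled count in the table was 3, so scarcer genes are not analysed here.

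Here the counts were compared with the edgeR 4.0.16 quasi-likelihood test in R 4.3.3 (TMM scaling, the tool's expression filter, genotype as the only term), with Benjamini-Hochberg adjustment over the 16710 genes that passed of 20579 and calls at adjusted p below 0.05. The test was tested on simulated data. CPM use TMM effective library sizes, levels between genes are CPM per kilobase of union exon (GENCODE M21, GRCm38), and a count of 3 was taken as the limit behind a 0. Binomial intervals and the limits behind a 0 cover counting error only, whereas the 95% limits of fold changes come from the spread among libraries in the fit. Total counts ranged from 8037887 to 26809231 per library. Features without a symbol held at most 0.0622% of counts. Alternatives were DESeq2 1.42.0, other scalings, no filter, label number, replicate block and leaving out libraries; the ribosomal RNA class term (3 repeat features above or below 5% of counts), the smooth muscle covariate, leaving out p57KO 1 and 2 together, and Hoxa with Hoxb alone were chosen after seeing the data.

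The members and the lists were chosen with earlier results of these data known. Values per library are given for the 3 members of each cluster with the highest level per kilobase, tested members of numbers 10 to 13, the 3 largest fold changes in each direction and members that depart from their cluster; Hoxb5 was added after its values were seen. From the other lists the genes with the smallest p are named, up to 4. Pknox1, Hoxaas3, Gm15050, Gm53, Gm11539, Gata4, Lct, Pdx1, Nkx6-3, Onecut2, Cybrd1 and Eed were named after their values were seen. Same-numbered libraries of the genotypes did not deviate together (correlations of deviations -0.17 to 0.24), so the numbers were not taken as pairs. No libraries of a genotype were alike to within sampling noise (chi-square per degree of freedom at least 50.1 among p57KO and 10.2 among p57WT pairs). A few single-gene results are not reported here.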

Additional observations from a re-analysis of the deposited data

Results flagged for a closer look

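Of 60 groups of 5 values checked for a sample far from the others, 8 held one, where chance gives about 1 in 20. Hoxa4 in p57KO 5 was at 6.51 CPM with the next p57KO library at 2.62 CPM, and Hoxb4 in p57KO 5 was at 15.4 CPM with the next at 5.32 CPM. Hoxb9 in p57KO 1 was at 13.6 CPM with the next at 5.28 CPM, and Hoxd9 in p57KO 1 at 1.11 CPM with the next at 0.253 CPM. Hoxc4 in p57WT 1 was at 13 CPM with the next p57WT library at 6.74 CPM. Hoxc9 and Hoxd8 in p57WT 5 were at 4.96 and 8.63 CPM, with the next at 1.85 and 2.61 CPM. Hoxd4 in p57WT 3 was at 6.51 CPM with the next at 1.89 CPM.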

How the results depend on the processing

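With TMM scaling over all libraries 6107 genes, 12 Hox members lower and 0 higher were called. DESeq2, upper-quartile scaling and no expression filter reversed no member's direction. Scaling to epithelial markers called 10445 genes and 17 Hox members lower, where 59.7% of all genes were called lower. Scaling to smooth muscle and fibroblast markers called 14432 genes. There 86% of all genes were called higher, while 6 of the 21 tested Hox members were higher and 0 lower. With the label number as a term, and in the same contrast within number 607, 1009 genes and 4 members lower were called. The ribosomal RNA class term gave 2959 genes and 6 members lower. The smooth muscle covariate, a level that did not overlap between genotypes, gave 1736 genes and 1 member lower. The share of called genes that were higher was 52.8% in the main fit, 4.57%, 99.6%, 18.1%, 40.8% and 64.2% in these 5 settings in the order given.

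Scaled to smooth muscle and fibroblast markers, log2 fold changes that had been below 0 stood at 0.97 for Hoxa2, 1.07 for Hoxa3, 0.22 for Hoxa4, 0.87 for Hoxa5, 1.39 for Hoxa7, 0.98 for Hoxb2, 0.96 for Hoxb3, 0.11 for Hoxb4, 0.56 for Hoxb5, 2.68 for Hoxb6, 2.12 for Hoxb7, 0.71 for Hoxc5, 0.14 for Hoxc9 and 2.10 for Hoxd4, where the median of all genes moved from 0.08 to 2.98. Scaled to epithelial markers, where that median was -1.23, Hoxa9 stood at -0.69, Hoxa10 at -0.40, Hoxb9 at -0.24 and Hoxb13 at -0.85. With the smooth muscle covariate Hoxa9 stood at -1.17, Hoxa10 at -1.04, Hoxb7 at 0.08, Hoxb9 at -0.59, Hoxb13 at -1.23, Hoxc5 at 0.94, Hoxc6 at 2.30 and Hoxc8 at 0.96. With the label number term and within 607 Hoxb6 stood at 0.79 and Hoxd4 at 0.03, and with the ribosomal RNA term Hoxd4 stood at 0.37. Without p57KO 1 and p57KO 2 Hoxa9 stood at -0.15 and Hoxb13 at -0.44. The cause of these shifts was not tested beyond the scaling itself.

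Leaving out each library in turn gave 4762 to 7141 genes called, 10 to 14 members lower, 0 to 0 higher, and a difference in the share of numbers 9 to 13 of 11.3 to 17.1 percentage points, and it reversed no member's direction. With a replicate block 5804 genes were called, and Hoxc5 (-1.87, edgeR adjusted p = 0.0279) and Hoxc6 (-3.26, edgeR adjusted p = 0.0149) passed as well. Same-numbered libraries did not pair, and 1 of 5 p57KO libraries correlated best with its own number. Depth limits the members below the filter: Hoxa13 had 0 to 20 reads per library, Hoxd9 0 to 23, Hoxd10 0 to 37 and Hoxd8 1 to 73.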
